A study of Mus musculus with 6 samples.

Results

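The 10 genes described here belong to the osteoclast system and were followed in cultured marrow stromal cells of mice with and without a conditional deletion of Rras2: 4 regulators that stromal cells make (Tnfsf11, Tnfrsf11b, Csf1 and Il34) and 6 genes of the osteoclast itself (Tnfrsf11a, Acp5, Ctsk, Dcstamp, Ocstamp and Nfatc1). They were chosen by symbol for their known roles, at a time when earlier results of these data were known. All 10 were found among the 12830 genes that were deposited. RNA came from primary BMSCs, the stromal cells of bone marrow that grow on plastic and can make bone or fat, after 2 days under osteogenic induction. The donors were 8-week-old mice, either Rras2f/f (3 libraries, called FF) or Prx1;Rras2f/f (3 libraries, called cKO). Both groups thus carried the floxed Rras2 gene, and cKO also carried the Prx1 construct, whose promoter is active in limb mesenchyme. Osteoclasts descend from blood-forming precursors, which lie outside that lineage, so these cultures can hold cells of both origins. The labels name no clone or pool of animals and do not say that libraries of a group came from separate mice, so the spread behind each p-value is that of these samples and may be technical.

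Osteoclasts are large multinucleated cells that dissolve bone. Stromal cells and osteoblasts steer their formation with RANK ligand (Tnfsf11), which binds the receptor RANK (Tnfrsf11a) on macrophage-like precursors, and with osteoprotegerin (Tnfrsf11b), a soluble decoy that captures the ligand. The ligands Csf1 and Il34 share the receptor Csf1r and keep the precursors alive. RANK signalling induces the transcription factor Nfatc1, which turns on the fusion proteins Dcstamp and Ocstamp and the resorption enzymes Acp5 (tartrate-resistant acid phosphatase) and Ctsk (cathepsin K). Some macrophages also make Acp5 and some stromal cells also make Ctsk, so neither marks osteoclasts alone.

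The upstream sequences of 3 members are shown. These members were picked by their values: Ctsk and Acp5 ranked the libraries in the same order, and Tnfsf11 had the largest group difference of the 10. Windows of Csf1 and Tnfrsf11a were also found and are not shown. No expression result uses the sequences. They come from RefSeq (GRCm38.p6) and end at the base before a transcript start, except that 10 bases next to the Acp5 start were left out because an exon of another Acp5 transcript covers them. The Ctsk window is chr3:95498960-95499209 on the plus strand, the Acp5 window chr9:22130609-22130848 on the minus strand and the Tnfsf11 window chr14:78308044-78308293 on the minus strand. RefSeq gave 3 starts for Acp5, and the 1 shown is the only one that matches a GENCODE start to the base. The Ctsk start does not match one. Sequences run 5′ to 3′ along the gene, and capitals mark the letters searched for on both strands: GGAAA (the core of NFAT sites), TGANTCA (AP-1), CATGTG (an E-box of the MITF family), TGTGGT (RUNX) and TATAAA (the TATA box).
Ctsk: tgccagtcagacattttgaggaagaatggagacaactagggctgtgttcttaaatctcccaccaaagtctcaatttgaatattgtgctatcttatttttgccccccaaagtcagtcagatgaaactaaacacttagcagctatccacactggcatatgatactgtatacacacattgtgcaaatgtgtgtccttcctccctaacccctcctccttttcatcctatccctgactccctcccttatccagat
Acp5: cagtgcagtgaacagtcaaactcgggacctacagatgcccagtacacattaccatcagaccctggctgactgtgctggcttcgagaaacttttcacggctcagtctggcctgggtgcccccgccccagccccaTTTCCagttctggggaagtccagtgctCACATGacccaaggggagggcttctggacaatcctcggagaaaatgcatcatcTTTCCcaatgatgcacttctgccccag
Tnfsf11: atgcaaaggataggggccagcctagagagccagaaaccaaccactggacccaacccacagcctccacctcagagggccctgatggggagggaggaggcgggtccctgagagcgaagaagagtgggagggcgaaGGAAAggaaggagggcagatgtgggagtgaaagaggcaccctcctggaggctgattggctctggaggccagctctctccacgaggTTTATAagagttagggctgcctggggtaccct
The Acp5 window held GGAAA on the opposite strand, at 117 and 37 bases before the start, and the E-box on the opposite strand at 90 bases. The Tnfsf11 window held GGAAA at 117 bases and TATAAA on the opposite strand at 32 bases. None of these letters was in the Ctsk window. Among 32817 RefSeq windows of 250 bases, 55.6% held GGAAA, 12.3% CATGTG and 12.4% TATAAA, while TGANTCA was in 6.75% and TGTGGT in 14% of them. These matches are descriptions of the letters and not evidence of binding.

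Library totals over the listed genes ran from 31934714 to 37561452 counts. Rras2 itself was 49.7, 50.1 and 44.7 CPM (counts scaled to library size, here after adjustment by trimmed mean of M values) in FF and 26.7, 29.0 and 26.8 CPM in cKO, a 1.75-fold fall (edgeR quasi-likelihood test, adjusted p = 1.08e-05). In all, 621 genes differed at an adjusted p below 0.05, which is 4.84% of those tested. Leaving out cKO replicate 1 raised that number to 1166, and leaving out FF replicate 2 lowered it to 268. The other single-library omissions gave 371 (FF replicate 1), 379 (FF replicate 3), 325 (cKO replicate 2) and 341 calls (cKO replicate 3).

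None of the 10 genes passed the edgeR test of the 6 libraries, which had no replicate term. The count was 0 of 10 by edgeR against 4.84% of all genes, and 0 by DESeq2 against 6.61% of all genes. It was also 0 by limma-voom, which called 434 of the 12830 genes. By direction, edgeR called 2.1% of all genes higher and 2.74% lower in cKO, and DESeq2 2.76% higher and 3.85% lower. At an unadjusted p below 0.05 edgeR counted 2 of 10, Tnfsf11 and Il34, against 17.3% of all genes. Log2 fold changes were above 0 for 9 of the 10 genes, against 50.2% of all genes, with Csf1 the exception at -0.02. The median log2 fold change was 0.20 over the 10 genes and 0.000579 over all tested genes. Groups did not overlap, with cKO higher, for 2 of the 10 genes, against 11.3% of all genes. The count of calls was 1 without FF replicate 1 (Ctsk), in a fit that called 371 of the 12830 genes. It was 1 without cKO replicate 1 (Tnfrsf11b), in a fit that called 1166. In an edgeR fit with a replicate term it was 2 (Acp5 and Tnfsf11), where 669 genes were called.

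**Figure D1:**
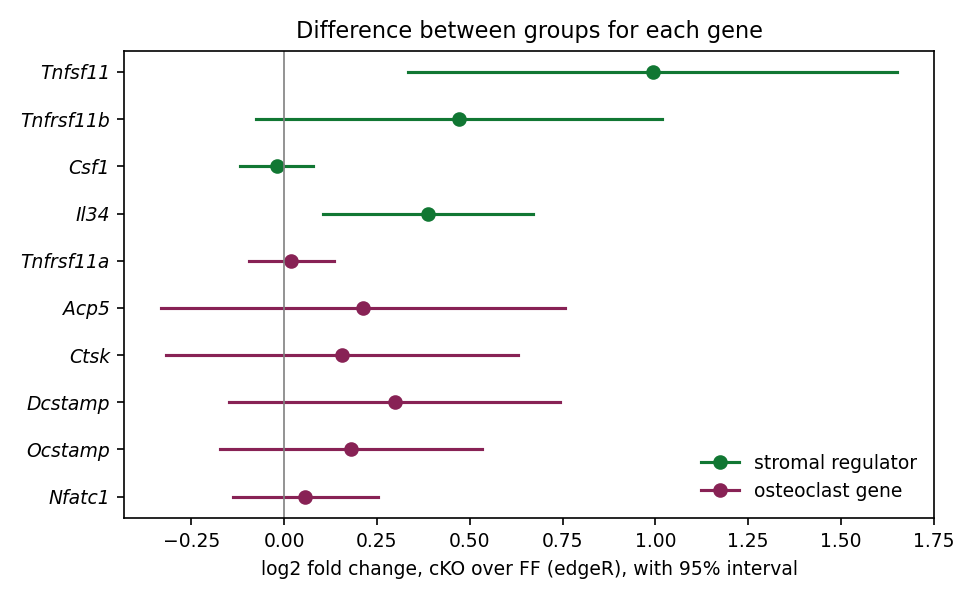
Log2 fold change of cKO over FF from the edgeR fit for the 10 genes, with dots for the estimate and lines for the 95% interval, green for stromal regulators and purple for osteoclast genes. The interval of Tnfsf11 runs from 0.33 to 1.65, while those of Csf1 and Tnfrsf11a stay within 0.14 of 0.

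Levels between genes were compared as FPKM, which the authors scaled for gene length. Ctsk stood highest of the 10 at a mean of 288 FPKM over the 6 libraries, at percentile 98.7 of the listed genes. Acp5 followed at 189 FPKM and Csf1 at 122 FPKM. Nfatc1 had 20.5, Tnfrsf11a 14.8 and Tnfrsf11b 12.1 FPKM. The 4 lowest were Il34 with 3.51, Dcstamp with 2.53, Ocstamp with 1.07 and Tnfsf11 with 0.697 FPKM. Among neighbours in this order, ranges over the 6 libraries overlapped for Tnfrsf11a and Tnfrsf11b, for Il34 and Dcstamp, and for Ocstamp and Tnfsf11, and did not overlap for the other neighbours. Ctsk (243.8 to 341 FPKM) stayed just above Acp5 (152 to 240.1 FPKM). Both resorption enzymes were among the most abundant transcripts of these stromal cultures, whereas RANK ligand was at percentile 6.33.

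Tnfsf11, the gene of RANK ligand, had the largest difference of the 10 and the fewest reads. Its level was 1.24, 1.48 and 0.717 CPM in FF against 2.54, 2.79 and 1.57 in cKO. Every cKO library was above every FF library, but cKO replicate 3 lay just above FF replicate 2. The means were 1.15 ± 0.390 CPM in FF against 2.30 ± 0.646 in cKO (SD, n = 3). The difference on the log2 scale was 0.99 (standard error 0.308, 95% interval 0.33 to 1.65; edgeR adjusted p = 0.0914). The authors deposited a log2 fold change of 0.995 and an adjusted p of 0.0571. The DESeq2 fit made here gave the same values after rounding, so these are not a separate result. These levels rest on 43, 56 and 23 reads in FF and 89, 97 and 57 in cKO. For the 23 reads the exact Poisson 95% interval is 14.6 to 34.5 reads, and for the 57 reads it is 43.2 to 73.9, counting error only. Leaving out any 1 library kept the direction, with log2 fold changes from 0.75 without FF replicate 3 to 1.22 without FF replicate 2 and adjusted p-values from 0.0538 to 0.30. In bulk RNA, fewer cells of a type and less RNA per cell cannot be told apart. The gene, ENSMUSG00000022015, covers minus-strand bases 78277445 to 78308043 of chromosome 14 in mm10.

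Tnfrsf11b, the gene of the decoy receptor osteoprotegerin, was split within the cKO group. It had 30.4, 35.1 and 28.3 CPM in FF against 32.0, 48.4 and 49.8 in cKO. The cKO replicates 2 and 3 were above every FF library, and cKO replicate 1 lay between the FF libraries. The difference on the log2 scale was 0.47 (standard error 0.208, 95% interval -0.07 to 1.02; edgeR adjusted p = 0.355). Without cKO replicate 1 it was 0.65 (adjusted p = 0.000164), and without any other single library the adjusted p was between 0.479 and 0.659. The gene, ENSMUSG00000063727, covers minus-strand bases 54250619 to 54278484 of chromosome 15 in mm10.

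The ratio of ligand to decoy is the measure usually read as the pro-osteoclast balance of stroma. Per length, Tnfsf11 stood at 5.13%, 5.26% and 3.14% of Tnfrsf11b in FF and at 9.95%, 7.21% and 3.94% in cKO. The cKO replicate 3 fell inside the FF range and the other two cKO libraries stood above it. From the counts, which need no scaling between libraries for a ratio, the mean log2 ratio was -4.83 ± 0.411 in FF and -4.25 ± 0.676 in cKO (SD, n = 3). The difference of 0.58 was within the spread between libraries (exact permutation test, two-sided, p = 0.30, where 3 against 3 cannot go below 0.10). It was 0.94 without cKO replicate 3, 0.34 without FF replicate 3 and 0.28 without cKO replicate 1.

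**Figure D2:**
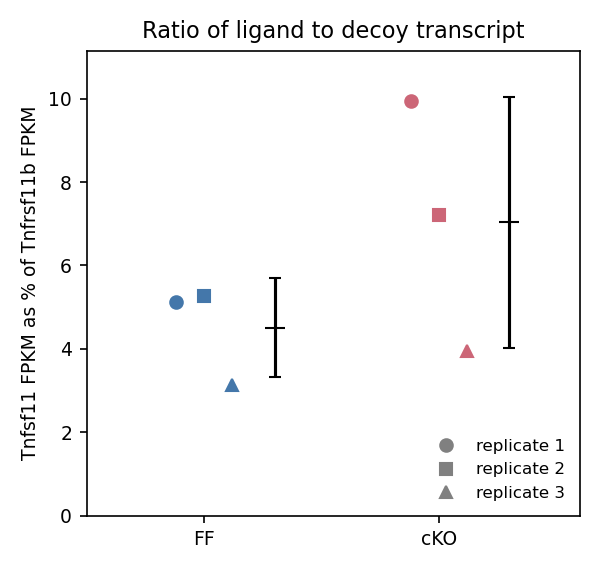
Tnfsf11 FPKM as a percentage of Tnfrsf11b FPKM in each library, with marker shapes for the replicate number and bars for mean and SD (n = 3). The cKO libraries spread from 3.94% to 9.95% and overlap the FF libraries at 3.14% to 5.26%.

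Csf1, the main survival factor of macrophages and osteoclast precursors, had the smallest spread relative to its mean within FF of the 10 genes. It had 478, 471 and 451 CPM in FF against 480, 442 and 459 in cKO, and the groups overlapped throughout. The log2 fold change was -0.02 with a 95% interval from -0.12 to 0.08 (edgeR adjusted p = 0.875), and it was 0.0082 without cKO replicate 2. Csf1 covers minus-strand bases 107741048 to 107760469 of chromosome 3 in mm10.

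Il34, the other ligand of Csf1r, separated the groups, with all cKO values on top. It had 5.30, 6.05 and 5.83 CPM in FF against 7.18, 8.24 and 7.05 in cKO, so the gap between groups was wider than the spread within FF. The difference on the log2 scale was 0.39 (standard error 0.132, 95% interval 0.10 to 0.67), which missed the threshold (edgeR adjusted p = 0.127). Leaving out single libraries gave adjusted p-values from 0.106 to 0.347. Per length, Il34 stood at 2.49 ± 0.226% of Csf1 in FF and 3.28 ± 0.423% in cKO (SD, n = 3), so Csf1 made up most of the Csf1r ligand transcripts in both groups. Il34 covers minus-strand bases 110741829 to 110805924 of chromosome 8 in mm10.

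**Figure D3:**
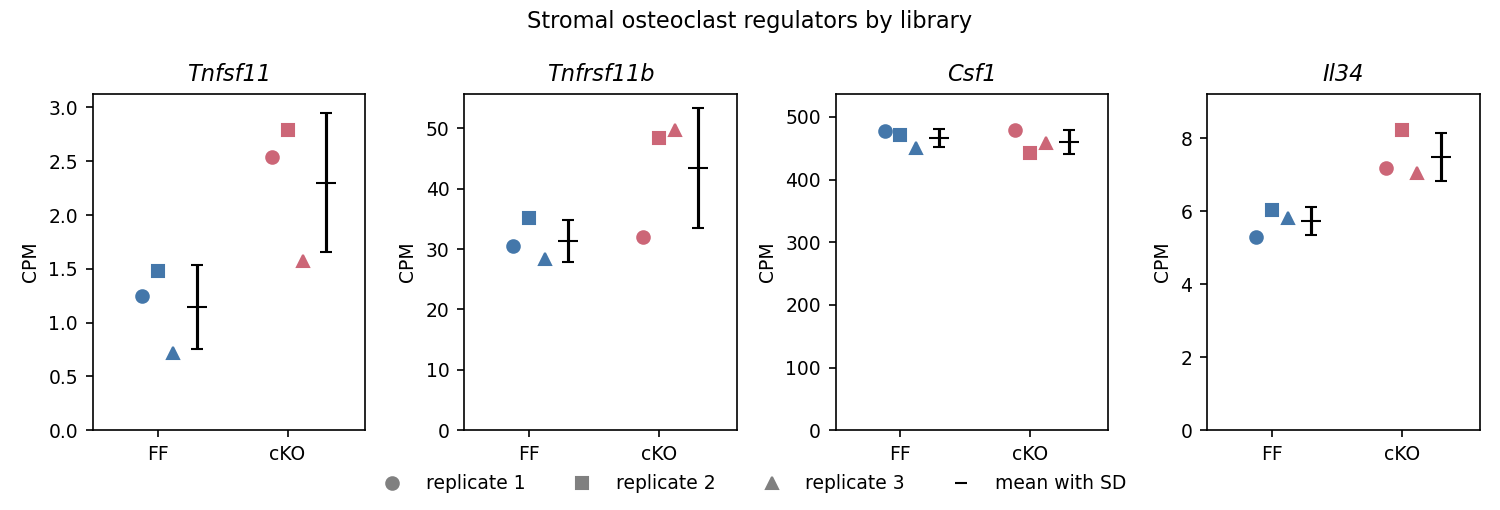
CPM of the 4 stromal regulators in each library, with marker shapes for the replicate number and bars for mean and SD (n = 3). Tnfsf11 and Il34 separate the groups, Tnfrsf11b is split within cKO between 32.0 and 49.8 CPM, and Csf1 overlaps.

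Markers of other cells also differed between the groups. Lymphocytes and plasma cells also make RANK ligand, and 4 of 12 of their markers were in the table. Of these, 3 rose and 0 fell, against 2.1% of all genes called higher and 2.74% lower in cKO. All 3 belong to antibodies. Igkc, an antibody light chain, averaged 55.5 ± 1.99 CPM in FF against 95.1 ± 1.27 in cKO (SD, n = 3). Jchain, which joins secreted antibodies, had a log2 fold change of 0.99, and Ighm, a heavy-chain constant gene, had 0.73. Antibody segments share sequence, so single values of this family are uncertain. Ighm was not called without any single FF replicate or without cKO replicate 2 (adjusted p from 0.0626 to 0.10). The 4 markers summed to 181 to 198 CPM in FF against 295 to 357 in cKO, and Cd79b, the B cell receptor subunit, had 0.15 and did not pass (edgeR adjusted p = 0.693). No marker measured was at 0 in a library, which was likely beforehand because the lowest mean count of any listed gene was 22.3. The markers of T cells, B cells and plasma cells that were not among the listed genes are not analysed here. The part of these cells in the Tnfsf11 and Tnfrsf11b values was not tested.

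Among markers of the stroma itself more values were lower than higher in cKO. Of 12 osteoblast and stromal markers 1 rose and 2 fell, against 4.84% of all genes called, with a median log2 fold change of -0.19. For 8 of the 12 every cKO library was below every FF library, against 11.2% of all genes. Col1a1, a chain of type I collagen, fell by 0.59 on the log2 scale and Runx2, the transcription factor of the osteoblast lineage, fell by 0.25, while Lepr, the leptin receptor of marrow stroma, rose by 0.47. Runx2 lost its call when FF replicate 3, cKO replicate 2 or cKO replicate 3 was left out (adjusted p from 0.0538 to 0.074). By DESeq2, by limma-voom and without cKO replicate 1 the count of calls was 7, and without cKO replicate 3 it was 5. Over all genes these fits called 848, 434, 1166 and 341. Pdgfra, Pdgfrb, Prrx1 and Cdh11, general mesenchymal genes chosen here after their values were seen, summed to 899 to 919 CPM in FF against 819 to 876 in cKO. Set against that sum, Tnfsf11 was 0.125 ± 0.0415% in FF and 0.267 ± 0.0673% in cKO, and Tnfrsf11b was 3.43 ± 0.35% in FF and 5.10 ± 1.28% in cKO (SD, n = 3).

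The stromal receptors and cytokines that induce RANK ligand gave 3 calls among 13 measured of 15, with 1 rise and 2 falls, against 2.1% of all genes higher and 2.74% lower. Ptgs2, the inducible cyclooxygenase that makes prostaglandins, was 9.23, 7.68 and 6.45 CPM in FF against 2.82, 2.94 and 2.34 in cKO, a fall of 1.53 on the log2 scale (edgeR adjusted p = 0.000134). Lifr, a receptor for leukaemia inhibitory factor, fell by 0.54, and Il1r1, the interleukin-1 receptor, rose by 0.44. Lifr was not called without any single FF replicate, without cKO replicate 2, or under upper-quartile scaling or unadjusted library totals (adjusted p from 0.0541 to 0.182). Il1r1 was not called in limma-voom or without FF replicate 2 or cKO replicate 3 (0.056 to 0.0807). Pth1r, the parathyroid hormone receptor, named after its values were seen, had 299 ± 9.18 CPM in FF against 190.4 ± 37.0 in cKO (SD, n = 3), with every cKO library lower. Its log2 fold change was -0.65 (edgeR adjusted p = 0.138), and it was called by DESeq2, by limma-voom and without cKO replicate 1 or 3. The list's count was 1 without FF replicate 2 and 5 without cKO replicate 1. Over all genes those fits called 268 and 1166. The list's median log2 fold change was -0.03. Prostaglandins are known inducers of Tnfsf11 in stroma.

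Other genes listed here as secreted or surface restrainers of osteoclast formation gave 1 call among 8 measured of 9, against 4.84% of all genes. This was Fstl1, a secreted follistatin-like protein, which rose by 0.18. Its placing among restrainers was a choice made here, and its effect on osteoclast formation was not tested. Fstl1 was not called without any single FF replicate or without cKO replicate 2 or 3 (edgeR adjusted p from 0.0938 to 0.181). Without cKO replicate 1 the count was 3, with Sfrp1 higher and Wnt4 lower in cKO, in a fit that called 1166 genes over all. Wnt4, a secreted Wnt ligand named after its values were seen, had 26.8 ± 0.635 CPM in FF against 17.6 ± 5.02 in cKO (SD, n = 3), with every cKO library lower, at -0.61 on the log2 scale (edgeR adjusted p = 0.231). Sfrp1, a secreted Wnt inhibitor that also binds RANK ligand, had 446 ± 5.06 CPM in FF against 482 ± 25.8 in cKO (SD, n = 3) and did not pass (edgeR adjusted p = 0.221; 0.0175 without cKO replicate 1). Among the attractants and supporters of precursors 1 of 11 was called, against 4.84% of all genes. Cxcl12, the chemokine that holds precursors in marrow, rose by 0.47, with 3483 ± 98.8 CPM in FF against 4838 ± 178 in cKO (SD, n = 3; edgeR adjusted p = 9.98e-05), and the count was 2 without cKO replicate 1. Tgfb1 had 215 ± 4.70 CPM in FF against 217 ± 16.8 in cKO, with a log2 fold change of 0.01 that was -0.0051 without FF replicate 1 and -0.044 without cKO replicate 1. The medians of these lists were -0.14 and -0.04.

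On the osteoclast side, the receptor Tnfrsf11a was the most even of the 6 genes. It had 84.5, 79.9 and 79.3 CPM in FF against 83.6, 77.6 and 85.9 in cKO. The groups overlapped and the log2 fold change was 0.02 with a 95% interval from -0.09 to 0.13 (edgeR adjusted p = 0.90). The gene covers plus-strand bases 105780718 to 105847981 of chromosome 1 in mm10. The fold change was -0.012 on the log2 scale without cKO replicate 3.

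Nfatc1, the master transcription factor, also overlapped between groups. It had 111, 93.7 and 96.8 CPM in FF against 116, 102 and 95.8 in cKO. The log2 fold change was 0.06 with a 95% interval from -0.14 to 0.25 (edgeR adjusted p = 0.803), and it was -0.025 without cKO replicate 1. The fusion genes were low and overlapped too. Dcstamp had 5.61, 4.86 and 2.93 CPM in FF against 5.47, 5.93 and 5.09 in cKO, with FF replicate 3 apart from the other 5 libraries. Its log2 fold change of 0.30 (edgeR adjusted p = 0.518) was 0.07 without FF replicate 3. Ocstamp, its partner in precursor fusion, had 4.43, 4.25 and 3.49 CPM in FF against 4.96, 4.29 and 4.54 in cKO, a log2 fold change of 0.18 with a 95% interval from -0.17 to 0.53 (edgeR adjusted p = 0.64). Dcstamp lies on chromosome 15 from 39745930 to 39760938 and Ocstamp on chromosome 2 from 165393760 to 165400405 in mm10.

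The resorption enzymes varied more between libraries of a group than between groups. Acp5 had 319, 222 and 240.2 CPM in FF against 356, 279 and 271 in cKO. Ctsk had 557, 398 and 405 CPM in FF against 566, 478 and 471 in cKO. Both genes put the 6 libraries in the same order, led by cKO replicate 1 and FF replicate 1, followed by cKO replicates 2 and 3 and then FF replicates 3 and 2. The log2 fold changes were 0.21 for Acp5 with a 95% interval from -0.33 to 0.76 (edgeR adjusted p = 0.683) and 0.16 for Ctsk with an interval from -0.32 to 0.63 (edgeR adjusted p = 0.744). Without FF replicate 1 they were 0.38 for Acp5 (adjusted p = 0.365) and 0.33 for Ctsk (adjusted p = 0.044). Without cKO replicate 1 they were 0.08 and 0.07 (adjusted p = 0.877 and 0.898). Acp5 covers minus-strand bases 22126727 to 22135711 of chromosome 9, and Ctsk covers plus-strand bases 95499256 to 95509362 of chromosome 3 in mm10.

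**Figure D4:**
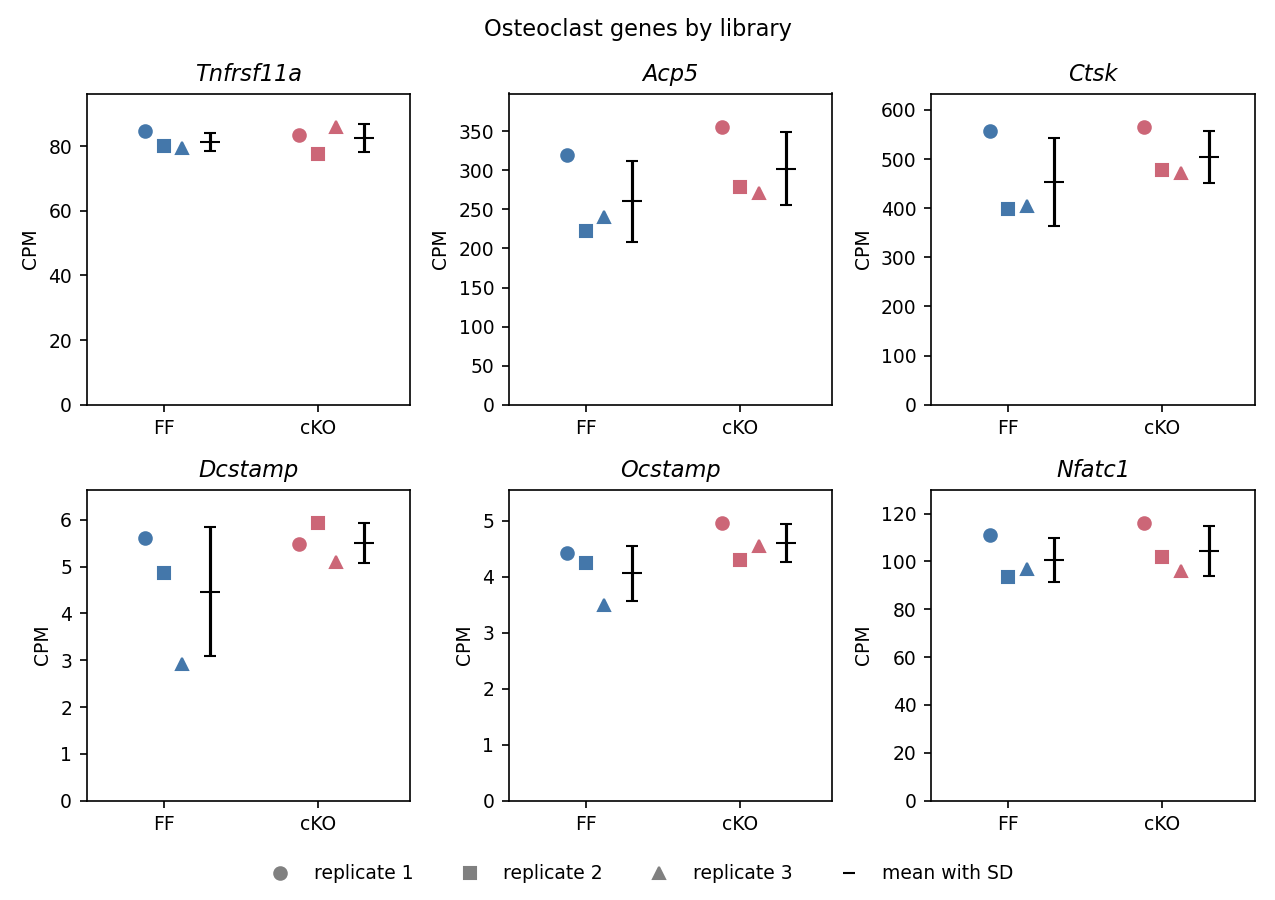
CPM of the 6 osteoclast genes in each library, with marker shapes for the replicate number and bars for mean and SD (n = 3). Groups overlap in all 6 panels, and the replicate 1 libraries of both groups are the highest for Acp5, Ctsk and Nfatc1.

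The complete order of the 6 libraries seen for Ctsk was that of Acp5 and of 19 of the 12830 genes in all, these 2 included, and of 0 of the 20 fusion, attachment and resorption genes. A looser pattern, looked for after the Acp5 and Ctsk values were seen, was that both replicate 1 libraries were the 2 highest. It held for 4 of the 10 members, namely the stromal regulator Csf1 besides Acp5, Ctsk and Nfatc1, against 6.71% of all genes. It also held for 7 of the 20 fusion, attachment and resorption genes. Those 7 were Calcr (the calcitonin receptor), Mmp9 (a matrix protease), Clcn7 (a chloride transporter of the resorption pit), Tcirg1 (a proton pump subunit), Src (the kinase of the ruffled border), Siglec15 (a surface receptor of osteoclasts) and Plekhm1 (a vesicle transport protein). The same held for 3 of 13 transcription factors and repressors, 2 of 10 precursor receptors and adaptors and 3 of 15 macrophage markers. Among stromal lists it held for 1 of 13 inducing receptors and cytokines, 1 of 8 restrainers and 1 of 11 attractants and supporters. It held for 0 of 12 osteoblast and stromal markers and 0 of 4 lymphocyte markers. The labels do not say whether a replicate number marks a shared preparation, and its part in this pattern was not tested.

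The labelled stromal cultures held clear macrophage transcripts. They also held transcripts of osteoclast genes, but the abundant Acp5 and Ctsk do not mark osteoclasts alone. The fusion genes Dcstamp and Ocstamp were low. Other osteoclast genes were mixed, with Mmp9 at a mean of 126 FPKM, Atp6v0d2 at 46.1, Nfatc1 at 20.5 and Tnfrsf11a at 14.8 FPKM. Oscar had 3.82 and Calcr 0.656 FPKM. Every listed gene averaged at least 22.3 counts per library, so zeros were unlikely for any of them. All 15 macrophage markers were listed and none was at 0 in a library. They summed to 25159 to 26533 CPM in FF against 27268 to 28179 in cKO, so the groups did not overlap, and the lysozyme gene Lyz2 made up 59.7% to 62.3% of each sum. Of the 15, 1 rose and 2 fell, against 4.84% of all genes called, with a median log2 fold change of 0.04. Mrc1, the mannose receptor, rose by 0.18, and Cd14, a lipopolysaccharide co-receptor, and Cd163, a haemoglobin scavenger receptor, fell by 0.18 and 0.32. All 3 calls were lost in some alternatives (adjusted p from 0.0537 to 0.208 there), and the count was 1 without FF replicate 1 and 0 without FF replicate 2, FF replicate 3 or cKO replicate 2. As a share of the summed macrophage markers, Acp5 was 1.004 ± 0.19% in FF and 1.09 ± 0.171% in cKO, and Ctsk was 1.75 ± 0.336% in FF and 1.82 ± 0.195% in cKO (SD, n = 3). The part of macrophage content in the osteoclast values was not tested beyond these shares.

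The other osteoclast lists gave 2 calls among 10 precursor receptors and adaptors, 1 among 13 transcription factors and repressors and 3 among 20 fusion, attachment and resorption genes, against 4.84% of all genes. Among the receptors and adaptors 1 rose and 1 fell. Tyrobp, the adaptor that pairs with costimulatory receptors, rose from 249.5 ± 10.9 to 298 ± 20.4 CPM (SD, n = 3), and Sirpb1a, a signal-regulatory receptor with near-identical family members that make its counts uncertain, fell by 0.69. The Tyrobp call was lost when FF replicate 2, cKO replicate 2 or cKO replicate 3 was left out (adjusted p from 0.0568 to 0.0976), and Sirpb1a was not called without any single FF replicate or cKO replicate 2 (0.0792 to 0.115). The list's count was 0 without FF replicate 2 or cKO replicate 2, and 1 without FF replicate 1, FF replicate 3 or cKO replicate 3. Csf1r, the receptor of Csf1 and Il34, was at 0.02 on the log2 scale (edgeR adjusted p = 0.911).

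Among 13 measured of 14 osteoclast transcription factors and their repressors, 0 rose and 1 fell. Id2, an inhibitor of helix-loop-helix factors that restrains osteoclast formation, was 37.3, 34.3 and 36.96 CPM in FF against 25.7, 26.3 and 29.9 in cKO, a fall of 0.40 on the log2 scale (edgeR adjusted p = 0.00468). Spi1, the factor that commits the macrophage lineage, had 205 ± 7.84 CPM in FF against 206 ± 9.37 in cKO (SD, n = 3). Its log2 fold change of 0.0017 was -0.020 without FF replicate 2, -0.0044 without FF replicate 3 and -0.036 without cKO replicate 1.

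Of 20 fusion, attachment and resorption genes 1 rose and 2 fell. Atp6v0d2, an osteoclast-enriched subunit of the proton pump that also serves precursor fusion, had 112, 99.7 and 111 CPM in FF against 156, 147 and 146 in cKO. Its groups were far apart, with a log2 fold change of 0.47 and a standard error of 0.0529 (edgeR adjusted p = 0.000129), and it was called in every alternative. Sh3pxd2a, a podosome scaffold, and Cd200, a surface glycoprotein of stromal and fusing cells, fell by 0.28 and 0.29. Sh3pxd2a was not called without FF replicate 2 or 3 or cKO replicate 2 or 3 (adjusted p from 0.0505 to 0.0928), and Cd200 in 8 alternatives (0.0585 to 0.178). The list's count was 1 without FF replicate 2, FF replicate 3 or cKO replicate 3. By DESeq2 it was 5, against 6.61% of all genes. The list's median log2 fold change was 0.03. Atp6v0d2 thus differed between groups where Acp5, Ctsk and Nfatc1 overlapped, although the difference between those genes was not tested.

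**Figure D5:**
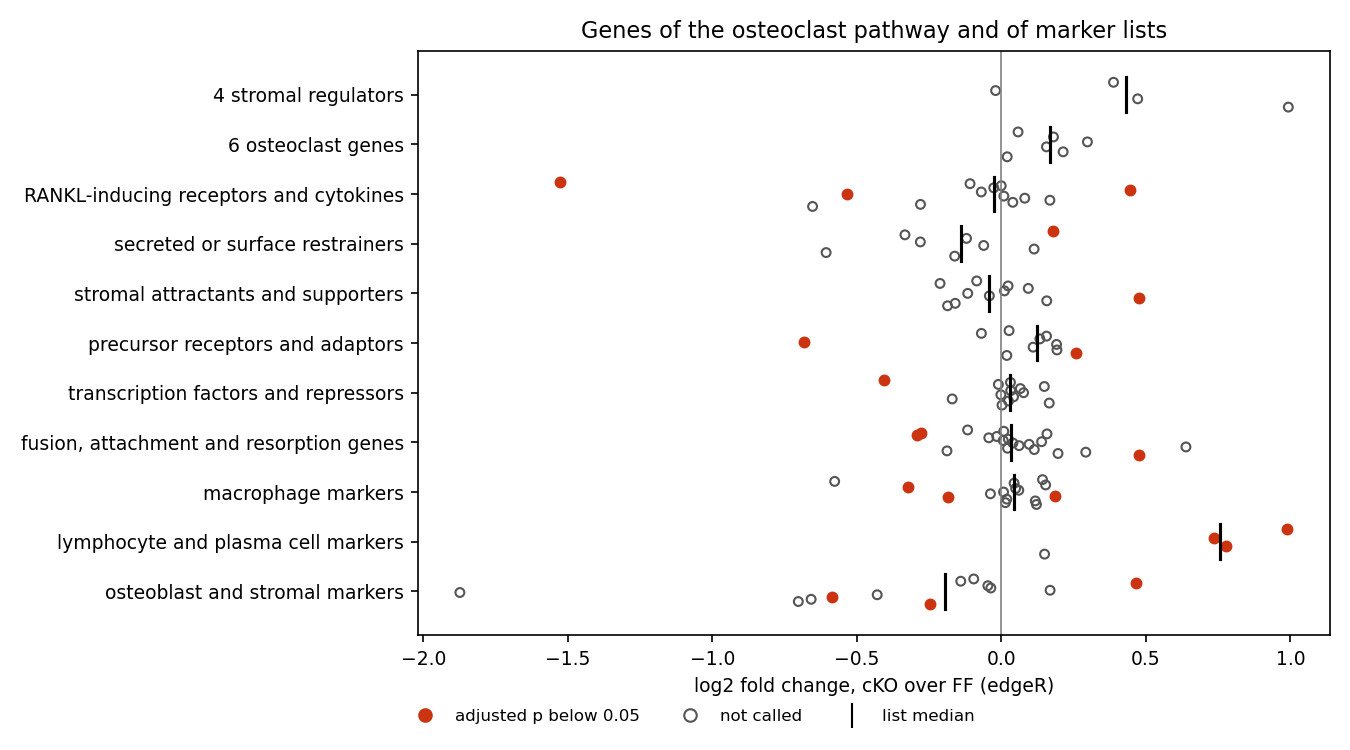
Log2 fold change of cKO over FF for every measured gene of the 11 lists, with filled points for genes at an adjusted p below 0.05, open points for the others and a bar at each list's median. The 6 osteoclast genes lie between 0.02 and 0.30, all open, beside filled points in 9 other lists.

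Genes whose levels over the 6 libraries most resembled each member were named by Pearson's r of log2(CPM + 1), over genes of at least 5 CPM on average (10785 for Tnfsf11 and 10784 for the others). Tnfsf11 was closest to Pnpla2 and Nhej1 (r = 0.985 and 0.984), and Tnfrsf11b to Ptbp3 and Ccbe1 (0.994 and 0.993). Csf1 was closest to Ank3 and Nlrp1a (0.991 and 0.983). Acp5 was closest to Nck2 and Amz1 (0.99 and 0.988) and Ctsk to Apba1 and Slc9b2 (0.99 and 0.989). These are descriptions with no test, and the points share libraries and depth. They were picked as the highest of 10784 or 10785 correlations over 6 libraries. Values near 0.99 can arise from that selection alone.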

How the data were processed

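The members and all gene lists were chosen with earlier results of these data known. Per the submitters' processing notes mm10 was used, and libraries were prepared by a strand-specific Illumina mRNA protocol, per the labels' protocols. No source used here names the aligner, the counter, its strand setting or the authors' test. For the 10 members the authors' log2 fold changes and adjusted p-values were those of the DESeq2 fit made here, after rounding. What the authors deposited included whole-number counts per gene and library as the authors made them. It also held FPKM, which the authors scaled for gene length and library size, and the authors' log2 fold change, p-value and adjusted p-value per gene, per the file headers. Its lowest mean count was 22.3 per library, and all 10 members passed that limit and the filter applied here, which removed 0 genes. Of 243 rows without a symbol 45 were named from their Ensembl identifier. GENCODE M21 gave coordinates.

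Differences between cKO and FF were fitted on the counts by edgeR 4.0.16 under R 4.3.3 (TMM, filterByExpr, robust quasi-likelihood F test, no covariates), with Benjamini-Hochberg adjustment over 12830 genes, and a gene was called at an adjusted p below 0.05. Intervals use the standard error from the F statistic and its degrees of freedom. The fitting code was run on counts simulated from means and dispersions that edgeR estimated. That checks the code and not how well the model suits these libraries. Named list genes were up to 4 called members by smallest p, filled to 2 by mean FPKM. Alternatives were other scaling and filters, DESeq2 1.42.0, limma-voom (limma 3.58.1), the replicate block and each library left out. No pair of libraries within a group agreed within sampling noise. RefSeq windows were found for 5 of the 10 members, and in 3 of 3 windows that could be compared the bases after the start equalled the transcript. Figures were drawn with matplotlib 3.10.9. Alternatives planned for a table without counts did not apply.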

Additional observations from a re-analysis of the deposited data

How the results depend on the processing

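Of the 10 genes, 0 were called under every other scaling, both filters, DESeq2 and limma-voom. Libraries of the same replicate number had deviations from their group means that correlated at -0.0462, 0.0606 and -0.147. These correlations took expressed genes together and do not speak for single genes. A replicate block in edgeR gave 2 calls, Tnfsf11 (adjusted p = 0.0342) and Acp5 (0.014), while calls over all genes numbered 669. In pairs by replicate number the difference in the log2 ratio of Tnfsf11 to Tnfrsf11b is 0.58 by arithmetic, whatever the pairing. Only its p-value could change (exact paired permutation p = 0.25, the smallest that 3 pairs allow). Leaving out single libraries gave 0 to 1 calls among the 10 and 268 to 1166 over all genes. The ratio difference ranged from 0.28 to 0.94 then, and was 0.58 from FPKM and 0.57 with 0.5 count added. Over single-library omissions the log2 fold change crossed 0, always uncalled, for Csf1 (-0.052 to 0.0082), Tnfrsf11a (-0.012 to 0.061), Nfatc1 (-0.025 to 0.13), Tgfb1 (-0.044 to 0.067; -0.0051 without FF replicate 1) and Spi1 (-0.036 to 0.030; -0.020 without FF replicate 2, -0.0044 without FF replicate 3). The cause of these changes was not tested. Of 20 called list genes named, 8 were called in every alternative (Ptgs2, Cxcl12, Id2, Atp6v0d2, Igkc, Jchain, Col1a1 and Lepr) and 12 were not. DESeq2 called 848 genes and limma-voom 434. Tnfsf11 rests on 23 to 97 reads per library.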
